A study of Mus musculus with 5 samples.

Results

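The transcripts described here are 10 genes that pattern the border between midbrain and hindbrain: En1, En2, Pax2, Pax5, Pax8, Gbx2, Otx1, Otx2, Lmx1b and Fgf8. They were found by gene symbol in the platform annotation, which names 19057 genes on the array, and all 10 were found, with 16 probes in all. They were chosen by the measured difference between mutIDH1 and wtIDH1 gliomas: En1 had the 9th most negative difference of the 16917 genes tested, and the other genes were taken as its partners. The differences of the 10 genes are therefore descriptions, with no test.

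RNA from whole tumour tissue of 5 mouse gliomas was measured on Illumina BeadArrays, 1 array a tumour. The 3 mutIDH1 gliomas came from Ntva Ink4a/Arf-/- mice injected with DF1 cells, a chicken fibroblast line, making PDGFa virus and with DF1 cells making virus for mutant IDH1 and shp53, by its name a short hairpin against p53. The 2 wtIDH1 gliomas, the controls, came from the same kind of mice given PDGFa virus and virus for wild-type IDH1 and shp53. Both groups thus lack Ink4a/Arf, a tumour suppressor locus, and carry PDGFa and shp53, and neither was treated; the mice were of a mixed FVB/N, C57BL6, BALB/C and 129 background. In Ntva mice the viral receptor tva is driven by the promoter of nestin, a gene of neural progenitors, so infection is limited to cells that use it. Age, injection site and the position of each tumour in the brain are unknown here, and the tumours were collected once the mice fell ill.

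In the embryo, Otx2 is made in front of the midbrain-hindbrain border and Gbx2 behind it, and each represses the other. Cells at the border, the isthmic organizer, secrete Fgf8 and Wnt1, and Pax2, Lmx1b, En1 and En2 induce or maintain these signals. In the adult brain En1, a homeodomain repressor, remains active in midbrain dopamine neurons, which need it to survive. Mutant IDH1 makes the metabolite 2-hydroxyglutarate, which inhibits enzymes that remove methyl groups from DNA and histones.

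The start of En1 is shown first, since En1 carries the largest difference of the set, with that of Gbx2 beside it. Each run is the 250 bases before the RefSeq start, in GRCm38.p6, from 5′ to 3′ along the gene's strand, with CpG dinucleotides in capitals. For En1 it is chr1:120602237-120602486 on the plus strand, and for Gbx2 chr1:89931177-89931426 on the minus strand.
En1: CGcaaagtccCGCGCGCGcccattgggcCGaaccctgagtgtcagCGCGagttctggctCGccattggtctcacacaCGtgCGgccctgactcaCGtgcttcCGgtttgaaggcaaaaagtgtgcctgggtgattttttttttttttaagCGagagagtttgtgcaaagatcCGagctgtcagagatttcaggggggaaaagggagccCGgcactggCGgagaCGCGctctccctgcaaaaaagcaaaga
Gbx2: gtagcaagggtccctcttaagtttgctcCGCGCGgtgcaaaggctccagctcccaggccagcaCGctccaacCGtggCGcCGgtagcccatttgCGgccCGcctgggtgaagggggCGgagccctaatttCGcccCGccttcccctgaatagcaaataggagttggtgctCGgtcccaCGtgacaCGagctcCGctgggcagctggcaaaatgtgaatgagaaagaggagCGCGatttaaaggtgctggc
The En1 window holds 19 CpG dinucleotides and the Gbx2 window 18. Of all 32851 RefSeq windows of this length, 19.7% hold at least as many as En1 and 21.7% at least as many as Gbx2, and the median is 6. DNA methylation was not measured. RefSeq windows were matched for 7 of the 10 genes, 12 windows in all. Of these genes, Otx2 was the 1 with TAATCC or TAATTA in any of its windows, with both strands searched. TAATCC is the core bound by OTX proteins. TAATTA, the same on both strands, is a core bound by many homeodomains, engrailed included. Of all windows 6.25% hold TAATCC and 4.84% hold TAATTA. These shares are per window, not per gene, and Otx2 and Pax2 had several windows, against 1 for each other matched gene.

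Values are log2 signals. A background level of 7.53 was estimated from the signals themselves, and between 18572 and 18586 of 45281 probes lay above it on each array. The arrays share their lowest and highest values, as after quantile normalization, which makes such counts nearly equal. These counts say nothing of array quality. Precision is limited by how few arrays there are. Markers of the tumour type were well above background in all 5 tumours: Pdgfra, the receptor of PDGFa, was at 13.67 or more and Olig2, a glial progenitor factor, at 8.53 or more. Idh1 was at 11.08, 10.73 and 10.94 in mutIDH1 gliomas, against 11.02 and 10.47 in wtIDH1 gliomas and Pdgfa at 10.84, 10.82 and 10.85 in mutIDH1, against 11.53 and 11.52 in wtIDH1 (−0.69, limma adjusted p = 0.0227, or 0.0671 with sex as a covariate at the same −0.69). Whether either probe reads the viral transcript is unknown here. The wtIDH1 tumours resembled each other less (r = 0.9709 over the 16917 genes) than the mutIDH1 tumours did (r of at least 0.9876), and 5 of the 6 pairs across groups (0.9728 to 0.9801) were also more alike than the wtIDH1 pair, as a description across genes that are not independent. By Xist, the RNA that silences an X chromosome (10.42 and 10.44, against at most 7.33), and by the Y-linked Eif2s3y, mutIDH1 sample 1 and wtIDH1 sample 1 were female and the other 3 tumours male.

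En1 was low in all mutIDH1 gliomas and high in both wtIDH1 gliomas. Its brightest probe read 8.13, 8.11 and 8.16 in the mutIDH1 tumours, against 10.53 and 10.39 in the wtIDH1 tumours. The groups lay far apart, and no array of either group fell to background at this probe. The means were 8.13 ± 0.021 in mutIDH1 (SD, n = 3) and 10.46 ± 0.097 in wtIDH1 (SD, n = 2), a difference of −2.33, or a signal 5.01-fold lower in mutIDH1. On the linear scale the signal averaged 281 in mutIDH1 and 1409 in wtIDH1 tumours. The dimmer En1 probe read 7.55, 7.39 and 7.48 in mutIDH1, against 8.49 and 8.56 in wtIDH1, a difference of −1.05. This probe lay above background in 1 of 3 mutIDH1 tumours and in 2 of 2 wtIDH1 tumours, so its difference is compressed at the low end. In a tumour made of many cell types, fewer cells making En1 and less En1 RNA in each cell cannot be told apart.

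The spread of En1 within the groups was small. Its pooled within-group SD was 0.059, and 17.8% of the tested genes had a smaller value; 0.065% of them had a larger absolute difference. By the limma fit over all 16917 genes, with Benjamini-Hochberg adjustment at 0.05, 1 of the 10 genes passed, En1, and it was lower in mutIDH1. Over all genes 1.35% passed, 0.899% lower and 0.449% higher in mutIDH1. Since that fit drew attention to En1, nothing is read from this count.

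**Figure D1:**
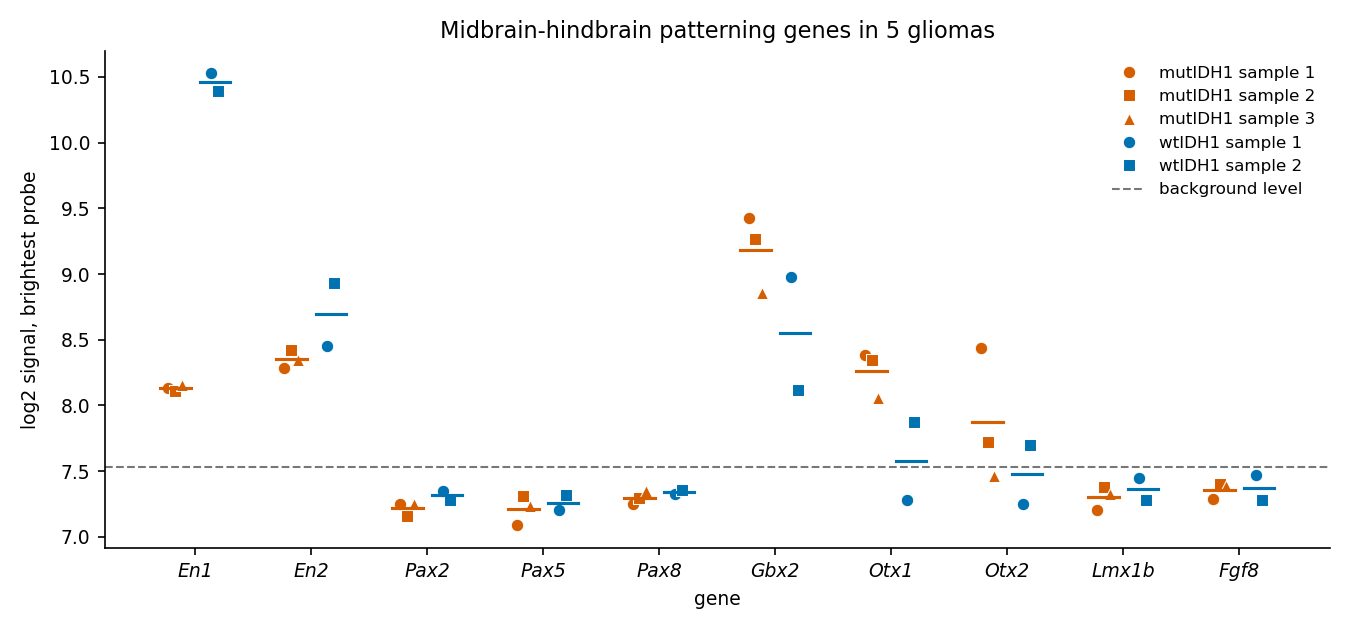
Log2 signal of the brightest probe of each gene (y axis) in each tumour, with mutIDH1 left in orange, wtIDH1 right in blue, bars at the group means and the estimated background level of 7.53 dashed. En1 separates the groups, with a difference of −2.33, while Pax2, Pax5, Pax8, Lmx1b and Fgf8 lie under the dashed line in every tumour.

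En2, the paralogue of En1 that acts with it in midbrain and cerebellum, did not share that pattern. Its probe read 8.29, 8.42 and 8.35 in mutIDH1 tumours, against 8.45 and 8.93 in wtIDH1 tumours. The groups did not overlap, but wtIDH1 sample 1 lay only just above the highest mutIDH1 tumour. The difference was −0.34, with an SD of 0.069 in mutIDH1 and 0.34 in wtIDH1, and it was −0.58 without wtIDH1 sample 1 and −0.10 without wtIDH1 sample 2. The 2 engrailed genes thus had differences of the same sign and different size; whether those sizes differ was not tested.

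The 3 genes of the Otx and Gbx families with signal had differences of the other sign, each smaller than that of En1. Otx1, a homeobox gene of forebrain and midbrain, read 8.39, 8.35 and 8.06 in mutIDH1, against 7.28 and 7.87 in wtIDH1. The groups did not overlap, and wtIDH1 sample 1 was at background. Their means were 8.26 ± 0.18 in mutIDH1 and 7.58 ± 0.42 in wtIDH1 (SD, n = 3 and 2), a difference of 0.69. It was 0.39 without wtIDH1 sample 1, 0.98 without wtIDH1 sample 2 and 1.06 with normexp background correction. Rbfox3, a marker of neurons chosen after its values were seen, was also lowest in that tumour: it read 10.43, 10.77 and 10.56 in mutIDH1, against 8.05 in wtIDH1 sample 1 and 11.38 in sample 2. The part of neuron content in the Otx1 values was not tested.

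Gbx2, the hindbrain-side factor of the border, read 9.43, 9.27 and 8.85 in mutIDH1, against 8.98 and 8.12 in wtIDH1. The groups overlapped, since wtIDH1 sample 1 lay above mutIDH1 sample 3. The difference of 0.63 was smaller than the gap of 0.86 between the wtIDH1 tumours, and it was 1.07 without wtIDH1 sample 1 and 0.20 without wtIDH1 sample 2. Otx2, the midbrain-side factor, read 8.43, 7.72 and 7.46 in mutIDH1, against 7.25 and 7.70 in wtIDH1. Its high value came from mutIDH1 sample 1, with 1 tumour of each group at background, and the groups overlapped. The difference of 0.40 was smaller than the range of 0.97 within mutIDH1. Leaving out mutIDH1 sample 1 gave 0.12 and leaving out mutIDH1 sample 3 gave 0.60. It was 0.17 once wtIDH1 sample 1 was dropped, and 0.62 once sample 2 was. Gbx2 and Otx2 therefore did not separate the groups beyond their own spread, and their pooled SDs exceeded those of 96.4% and 96.7% of genes.

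The signals of the border were at or under background everywhere. Fgf8, the organizer's growth factor, was so at both its probes, and so were both probes of Lmx1b, a LIM homeobox gene that maintains Fgf8 and Wnt1. The paired-box genes, Pax2 (2 probes), Pax5 (1 probe) and Pax8 (3 probes), which act at the border before and with the engrailed genes, gave the same result. These 10 probes ran from 7.09 to 7.47 over all tumours, and their largest absolute difference was 0.097, at the brighter Pax2 probe; the dimmer Pax2 probe differed by 0.036 in the other direction. The differences of Pax5, Lmx1b and Fgf8 changed sign with single tumours left out and have no direction. No fold can be given for genes under background in both groups, and a low level could not be told from none. Of the 16 probes 13 passed the filter that leaves out the dimmest 20% of probes, so that each of the 10 genes was tested, although 5 of them never rose above background.

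Counted over the 10 genes, 4 had groups that did not overlap, 3 lower in mutIDH1 (En1, En2 and Pax2, the last under background) and 1 higher (Otx1). Of all tested genes 30.6% had groups that did not overlap, 14% lower and 16.7% higher in mutIDH1.

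**Figure D2:**
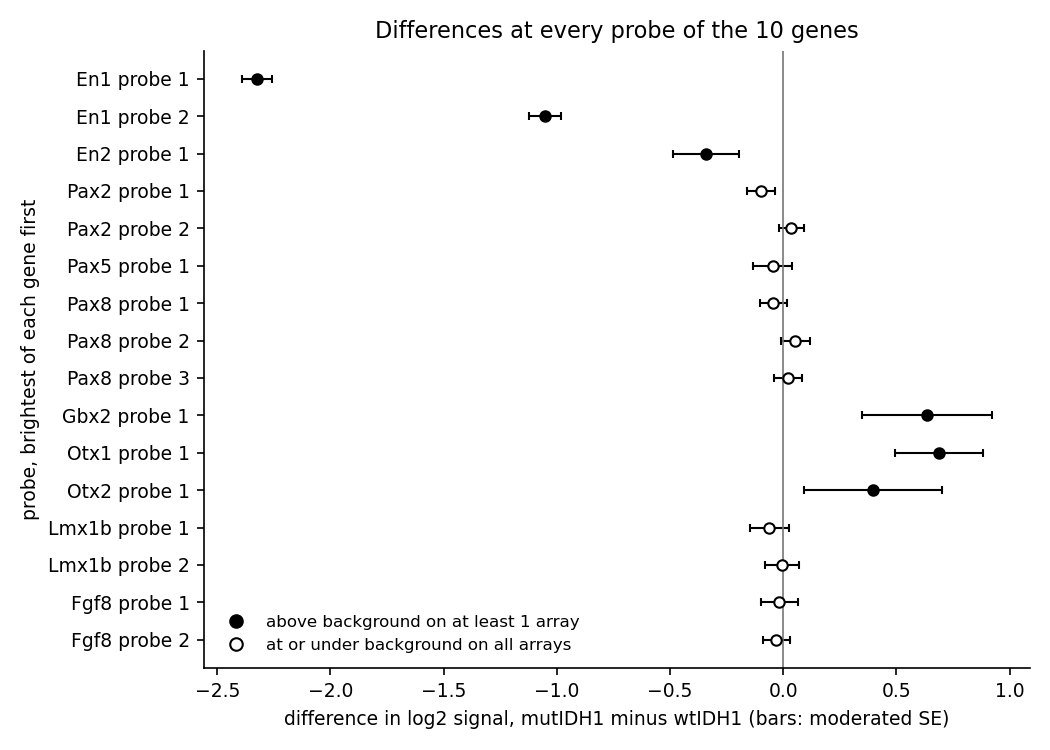
Difference in log2 signal, mutIDH1 minus wtIDH1 (x axis), with the moderated SE of the fit over all probes, for each of the 16 probes (y axis); open points were at or under background on all arrays. Both En1 probes lie left of 0, at −2.33 and −1.05, while the open points lie within 0.097 of it.

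Other genes of the same regions were taken from 10 lists written with earlier results of these data known. Of 140 genes listed, 112 were tested, and 78 were above background in at least 1 tumour. By limma over all genes 2 fell and 1 rose in mutIDH1, which is 2.68% of the 112, against 1.35% of all genes. Their median difference was −0.012, against 0.014 over all genes. The 2 that fell were Hoxa2 and Col1a1, and the 1 that rose was Sall3. These 3 calls were lost without any 1 of the mutIDH1 tumours. Without mutIDH1 sample 2 or 3, 0 genes passed by limma over the whole table (1747 and 1849 at an unadjusted p under 0.05), so that no call given here, En1 included, was kept in those fits. A fit without either wtIDH1 tumour leaves 1 tumour in that group, so the spread of wtIDH1 is not measured. From those fits only differences are given.

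Among 17 tested midbrain and isthmus genes 0 passed by limma, with 8 differences under 0 and 9 above it (median 0.015). Sp5 is a Wnt target named by rule that was also chosen after its values were seen. It read 7.68, 7.75 and 7.70 in mutIDH1, against 9.10 in wtIDH1 sample 1 and 7.77 in sample 2. It was thus high in 1 wtIDH1 tumour alone, and its limma adjusted p was 0.478. The Sp5 difference was −1.38 without wtIDH1 sample 2 and −0.063 without sample 1. Tle4, a corepressor of the Groucho family to which engrailed binds, had a difference of 0.27 (adjusted p = 0.439). Wnt1 was named on the array but its probes fell under the filter on dim probes.

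Of 13 tested feedback inhibitors, receptors and ETS factors of FGF signalling 0 passed by limma (median 0.10). Flrt3, a membrane protein that promotes FGF signalling, stood at 0.45 ± 0.10 (SE, adjusted p = 0.123) and Spred1, an inhibitor of the MAPK cascade, at 0.32 ± 0.085 (adjusted p = 0.165). Dusp6, a phosphatase induced by FGF8 at the isthmus and chosen after its values were seen, read 13.49, 13.38 and 13.37 in mutIDH1, against 13.66 and 12.96 in wtIDH1, and the groups overlapped. The list's level per tumour ran from 0.0030 to 0.10 in mutIDH1 and from −0.096 to −0.053 in wtIDH1, as mean log2 signals centred on each gene.

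Among hindbrain genes Hoxa2 had a difference close in size to that of En1. Hoxa2, which marks the hindbrain from its second segment back, read 7.63, 7.44 and 7.72 in mutIDH1, against 10.23 and 9.69 in wtIDH1. It fell by 2.36 ± 0.18 (log2, SE, limma adjusted p = 0.0169) and its second probe was under background in all mutIDH1 tumours, against 10.14 and 8.88 in wtIDH1. It was the 1 gene called among 14 tested of this list (7.14%). The list had 7 differences under 0 and 7 above it, with a median of −0.021. Its mean level ran from −0.27 to −0.19 in mutIDH1 and was 0.55 and 0.13 in wtIDH1. Hoxa3, Hoxb1, Hoxb4 and Hoxd3 lay under background in every tumour. Hoxb2 was at 8.74 in wtIDH1 sample 1, against 7.32 in sample 2 and 7.39, 7.38 and 7.58 in mutIDH1. Hoxb3 was above background in mutIDH1 sample 2 alone, at 7.70. Irx5, Irx2 and Irx3, Iroquois genes named after their values were seen, had large differences that did not pass with all tumours. Irx5 read 7.95, 7.69 and 7.52 in mutIDH1, against 10.71 and 9.30 in wtIDH1 (−2.28, adjusted p = 0.0791), Irx2 stood at −1.67 (adjusted p = 0.126) and Irx3 at −1.55 (adjusted p = 0.258). The other Irx2 probes differed by −1.79 and −0.074, the last under background in every tumour. Irx1, of the same family, read 7.84, 7.96 and 7.58 in mutIDH1, against 8.10 and 8.18 in wtIDH1 (−0.35, limma adjusted p = 0.308). In each of these Iroquois genes the groups did not overlap, as in 30.6% of all tested genes. Irx5 passed with normexp (limma adjusted p = 0.0314). Its difference was −1.58 without wtIDH1 sample 1 and −2.99 without sample 2. Irx3 was at −0.75 without wtIDH1 sample 1 and at −2.34 without sample 2.

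Some genes of midbrain dopamine neurons, the adult cells in which En1 is active, followed another pattern. Slc6a3, the dopamine transporter, read 7.67, 8.34 and 7.44 in mutIDH1, against 7.44 in wtIDH1 sample 1 and 11.87 in wtIDH1 sample 2. Ddc, aromatic amino acid decarboxylase, read 8.33, 8.35 and 7.67 in mutIDH1, against 7.42 and 11.02 in the same wtIDH1 tumours, and Th, tyrosine hydroxylase, read 7.22, 7.58 and 7.27 in mutIDH1, against 7.30 and 9.39 in wtIDH1. Slc18a2, the vesicular monoamine transporter, was above background in wtIDH1 sample 2 alone, at 7.92. Slc6a3, Ddc, Th and Slc18a2, the first 2 chosen after their values were seen, were thus high in wtIDH1 sample 2 alone. Of the rest of the list, Drd2 (8.04) and Aldh1a1 (9.995) were also highest there. Ret (8.57) and Nr4a2 (8.09) were highest there by a small margin. Pitx3 lay under background in every tumour, and Ebf1 was highest in wtIDH1 sample 1 (7.93). En1 was as high in wtIDH1 sample 1, where Slc6a3, Ddc and Th were at or under background, as in sample 2. Its difference was −2.39 without wtIDH1 sample 2. The part of dopamine neurons in the En1 values was not tested. Of the 10 genes of this list 0 passed by limma, and their level per tumour ran from −0.30 to −0.10 in mutIDH1 and from −0.43 to 1.003 in wtIDH1. Their median difference was −0.14 with all tumours, −0.61 without wtIDH1 sample 1 and 0.15 without wtIDH1 sample 2.

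**Figure D3:**
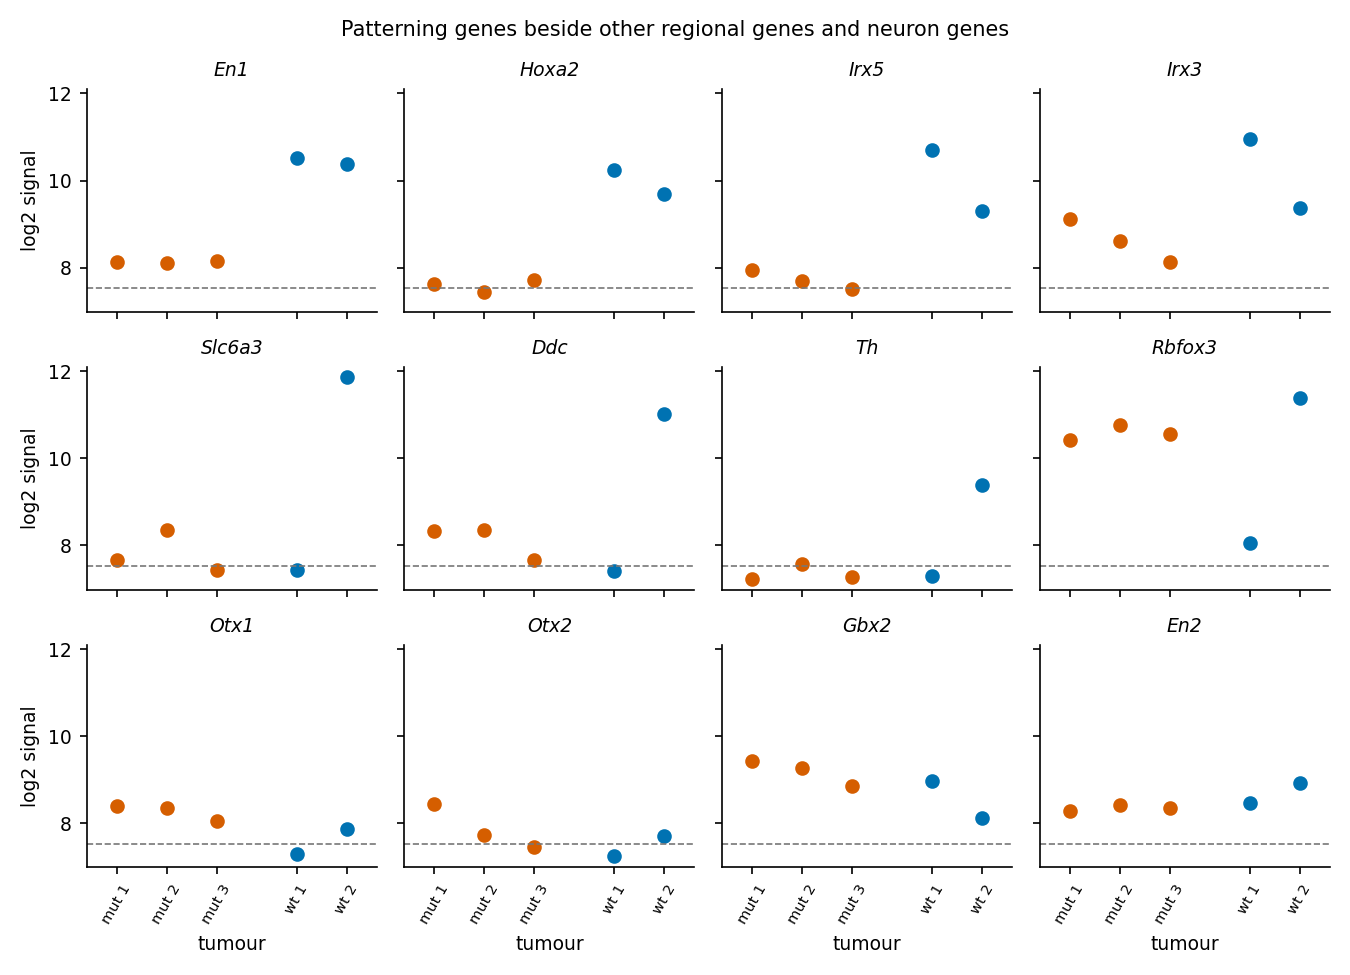
Log2 signal (y axis) of 12 genes in each tumour (x axis), with mutIDH1 in orange, wtIDH1 in blue and the background level of 7.53 dashed. En1 and Hoxa2 are high in both wtIDH1 tumours, while Slc6a3, Ddc and Th are high in wtIDH1 sample 2 alone, where Slc6a3 reached 11.87.

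Serotonin neurons of the hindbrain, which depend on Lmx1b, were covered by 5 tested genes, of which 0 passed by limma. Gata2, a factor upstream of these neurons that blood and endothelial cells also make, read 7.89, 7.67 and 7.78 in mutIDH1, against 8.36 and 8.21 in wtIDH1 (−0.51 ± 0.097 SE, adjusted p = 0.0889). Htr1a, a serotonin receptor, had a difference of −0.091 (adjusted p = 0.780). The list's level ran from −0.096 to 0.022 in mutIDH1 and was 0.052 and 0.084 in wtIDH1. Gata2 had the largest difference of the list, and those of its other genes lay between −0.091 and 0.11. Tph2, the enzyme that defines these neurons, chosen after its values were seen, overlapped between the groups (8.14, 8.03 and 8.55 in mutIDH1, against 8.58 and 8.05 in wtIDH1). Among 8 tested cerebellar genes 0 passed by limma. Cbln1, a synaptic organizer of granule cells, read 10.49, 9.22 and 9.08 in mutIDH1, against 10.84 and 10.43 in wtIDH1, with overlap (adjusted p = 0.390), and Barhl1, a homeobox gene of granule cell progenitors, lay under background throughout.

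Of 15 tested forebrain genes Sall3, a zinc finger factor, was the 1 that passed by limma. It read 11.95, 12.11 and 12.40 in mutIDH1, against 10.71 and 10.62 in wtIDH1, a rise of 1.49 ± 0.14 (SE, adjusted p = 0.0228), and its second probe stood at 0.67. The call was also lost with sex as a covariate, where the difference was 1.46 (adjusted p = 0.0613). The list had a median of −0.0047, with 8 differences under 0 and 7 above it.

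Otx2 also marks the choroid plexus, and genes of that tissue were read beside it. Of 7 tested, 0 passed by limma, 6 had differences above 0, and the median was 0.23. Over all genes 9202 of 16917 had differences above 0. Ttr, the transthyretin that the choroid plexus secretes, read 12.64, 12.85 and 13.14 in mutIDH1, against 9.91 and 12.19 in wtIDH1 (1.83 ± 0.65 SE, adjusted p = 0.285). Its difference was 0.69 without wtIDH1 sample 1 and 2.97 without wtIDH1 sample 2, where it passed (adjusted p = 0.00818), and the list's median was 0.10 without wtIDH1 sample 1. Sostdc1, a secreted antagonist of BMP signalling, stood at 0.39 ± 0.10 (SE, adjusted p = 0.160). The list's level ran from 0.13 to 0.21 in mutIDH1 and from −0.44 to −0.034 in wtIDH1. It was lowest in wtIDH1 sample 1, as Otx2 was, but it did not follow the high Otx2 of mutIDH1 sample 1; its part in the Otx2 values was not tested.

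En1 is also active in some fibroblasts of the skin, and fibroblast genes were read beside it. Of 15 tested genes of meninges and fibroblasts 13 had differences under 0, with a median of −0.35. Over all genes 7715 of 16917 had differences under 0. Col1a1, a fibrillar collagen chain, was the 1 that passed by limma: it read 7.80, 7.59 and 7.54 in mutIDH1, against 9.27 and 9.09 in wtIDH1, and fell by 1.53 ± 0.11 (SE, adjusted p = 0.01495). Dcn, a small proteoglycan chosen after its values were seen, read 10.40, 9.18 and 9.32 in mutIDH1, against 11.81 and 11.59 in wtIDH1 (−2.07, adjusted p = 0.0815), and passed with normexp (adjusted p = 0.0489) and when mutIDH1 sample 1 was left out (0.0377). The list's level ran from −0.36 to 0.0076 in mutIDH1 and from 0.30 to 0.39 in wtIDH1, and 14 of the 15 genes were above background in at least 1 tumour. Within mutIDH1, Dcn was 1.22 higher in sample 1 than in sample 2, while En1 differed by 0.017 between these tumours. The part of fibroblasts in the En1 values was not tested.

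Among 9 tested relatives of the paired-box, Otx and Lmx genes 0 passed by limma, and 2 were above background in any tumour. Lmx1a, the partner of Lmx1b in dopamine neuron progenitors, and Pax1, a paired-box gene of the skeleton, were under background throughout.

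**Figure D4:**
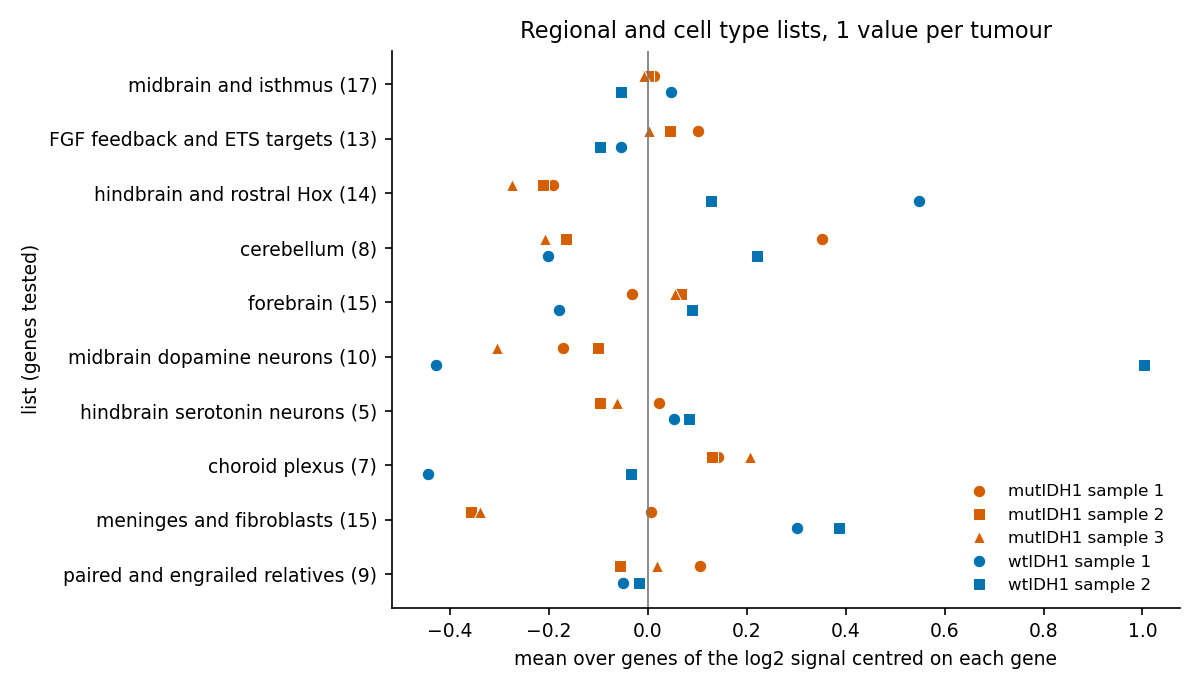
Level of each list in each tumour (x axis, mean over its tested genes of the log2 signal centred on each gene), with mutIDH1 above in orange and wtIDH1 below in blue. The mean of the dopamine neuron list sets wtIDH1 sample 2 apart, at 1.003, though not every gene of the list does. The hindbrain, serotonin neuron and fibroblast lists lie higher in both wtIDH1 tumours, and the FGF feedback and choroid plexus lists lie lower in both. The hindbrain list has 7 of its 14 differences under 0. In the serotonin neuron list the largest difference is that of Gata2 (−0.51), and the others lie between −0.091 and 0.11.

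The genes most like En1 were sought by Pearson r over the 5 tumours among 1027 other genes with a range of at least 1. With 5 points in 2 clusters this measure mainly ranks how cleanly a gene separates the groups, and 23 genes reached 0.99 and 4 reached −0.99. The 6 highest were Hoxa5 (0.9985), Pdlim1 (0.9982), Col8a1 (0.9982), Hoxa7 (0.9958), Scarf2 (0.9956) and C4b (0.9956). All were called by limma. Genes picked by this measure already separate the groups, so nothing is read from such calls or their p-values. Hoxa5 and Hoxa7, homeobox genes of the trunk, did not exceed background in any mutIDH1 tumour (means 7.33 and 7.29) and averaged 10.96 and 10.91 in wtIDH1, at least 10.8-fold and 10.5-fold lower in mutIDH1 (adjusted p = 0.00607 and 0.00199). Col8a1, a vessel and fibroblast collagen, fell by 1.74 (adjusted p = 0.00709) and Pdlim1, a cytoskeletal adaptor, fell by 1.84 (adjusted p = 0.00709). C4b has a near-identical copy, C4a, and its signal is uncertain for that reason. The most negative r belonged to Thsd7b (−0.9976), Inka2 (−0.9933) and Sox2 (−0.9918). Sox2, a factor of neural stem cells, read 10.10, 10.04 and 10.07 in mutIDH1, against 9.14 and 9.02 in wtIDH1, and rose by 0.99 ± 0.076 (SE, adjusted p = 0.0169); its second probe stood at 0.15.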

How the data were processed

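The log2 signals used here were deposited by the authors as 1 table of 45281 probes. Per the submitters' processing notes limma was used; its version and steps are not given in the sources used here. All 5 columns share the same lowest (6.91) and highest (15.06) value, as after quantile normalization, and no background was subtracted to 0, which compresses dim differences. A non-normalized table was also given; its 10 value columns could not be tied to samples and stayed out.

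Probes were named through the platform annotation: 34885 had 1 symbol, 18 several and 10378 none here, and 34807 identifiers matched RefSeq. The dimmest 20% of probes, those averaging below 7.23, were removed, and the brightest probe represented each gene. The background level was set 3 SDs (each 0.092, from signals below the mode) above the mode of 7.25. Differences, mutIDH1 minus wtIDH1, were fitted with limma 3.58.1 in R 4.3.3 (2-sided, group only, 3 residual and 2.50 prior degrees of freedom). The fit was tried on simulated normal values with planted shifts and the same spread in both groups. That trial checked only that mean estimates lay close to the planted shifts, and is no check of false calls. Samples carry different tumour codes and were taken as separate tumours; separate mice are not stated, and p-values measure only the spread between these samples, which may be technical. The members and lists were chosen with earlier results of these data known. Named by rule were all members, the called genes of each list (otherwise the 2 with the smallest p) and the genes most like En1. Sp5 and Sox2 fall under these rules but were also chosen after their values were seen. Chosen only after their values were seen were Irx1, Irx2, Irx3, Irx5, Slc6a3, Ddc, Dcn, Rbfox3, Olig2, Pdgfra, Dusp6 and Tph2. So were Drd2, Aldh1a1, Ret, Nr4a2, Pitx3, Ebf1, Hoxb2, Hoxb3 and the Hox genes under background. Alternatives covered the filter, probes, background, normalization, moderation, sex, a replicate block and each tumour left out.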

Additional observations from a re-analysis of the deposited data

How the results depend on the processing

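The En1 difference kept its sign under all 14 alternatives, several of which could not have changed it. En1 was chosen for this difference and its groups lay far apart, so leaving out a tumour could not turn the sign. Changing the filter on dim probes or the moderation leaves the estimate as it is, so no support is read from this count. The En1 difference was −1.69 with the mean of the En1 probes and −2.72 with normexp background correction. It was −2.39 to −2.26 with a tumour left out. The whole table gave 228 genes, 385 with each probe tested on its own, 363 with trended and robust moderation, 59 with sex as a covariate and 0 by limma with a replicate block (1562 at an unadjusted p under 0.05). It gave between 0 and 479 with a tumour left out: 14 without mutIDH1 sample 1, 0 without mutIDH1 sample 2 or 3, 283 without wtIDH1 sample 1 and 479 without wtIDH1 sample 2. Of the regional lists 3 genes passed, 5 with normexp, 5 with trended and robust moderation and 0 with the replicate block (by limma). With a mutIDH1 tumour left out, 1 passed without sample 1 and 0 without sample 2 or 3. The cause was not tested. The sample numbers were not taken as pairs, and the block leaves 1 residual degree of freedom. Same-numbered tumours had deviations correlated at −0.263 and 0.107, and crossed numbers at 0.263 and −0.107. With 2 wtIDH1 tumours the deviations are exact opposites, so these values mirror each other and cannot show whether the numbers are pairs. The sign turned without wtIDH1 sample 2, set here against the value without wtIDH1 sample 1: 0.052 against −2.03 for Th, 0.038 against −0.68 for Slc18a2, 0.0014 against −0.18 for Htr1a, 0.38 against −4.05 for Slc6a3, 0.70 against −2.90 for Ddc, and −0.10 against 0.45 for Idh1. The Slc18a2 and Htr1a values lie mostly at or under background, and their sizes and signs there carry no order. Of the 10 genes, Pax5, Lmx1b and Fgf8, under background throughout, also changed sign with single tumours left out. Dim signals limit 5 of the 10 genes, which lay under background in every tumour.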
